A study of Sus scrofa with 6 samples.

Results

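Immediate early genes are genes whose RNA appears soon after a cell is stimulated, without new protein having to be made first. The set described here holds 6 of them, FOS, JUN, JUNB, EGR1, IER2 and IER5, and ELK4, an ETS transcription factor that acts at the promoters of such genes. Members were taken from the deposited table by name, through the best protein match or KEGG entry of each transcript row, with 1 row kept per gene, the one with the most reads. They are 7 of 20523 transcript rows. EGR1 was named by 2 rows and every other member by 1. The set was chosen by name with results of these same libraries known, among them the higher RPKM of IER5 and ELK4 in QQ embryos, and the row of each gene was selected on its number of reads. Differences between genotypes below therefore describe the members, and no test is read from them. Values of 3 libraries are printed in the order of replicates 1, 2 and 3.

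The libraries were made from messenger RNA of whole Large White pig embryos at 17.5 to 18.0 days post coitum. The 3 wild-type embryos (WT, qq) carry neither of 2 quantitative trait nucleotides of VRTN, the vertnin gene, and the 3 QQ embryos carry both on both chromosomes. All 6 embryos share breed and this stated range of days, and the stage of each embryo within it is not given. The labels give no sex, litter, dam or treatment. A whole embryo mixes all its tissues, so fewer cells of a type and less RNA per cell cannot be told apart here, and the p-values of the fit across genes measure only the spread between these 6 libraries.

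The pathway behind the set runs from growth factor receptors through Ras and the kinase ERK to the nucleus. There ERK phosphorylates the ternary complex factors ELK1, ELK3 and ELK4, which sit on DNA together with serum response factor (SRF) and switch on FOS, EGR1 and other immediate early genes. FOS and JUN proteins pair to form the transcription factor AP-1, JUNB is a JUN relative that can pair with FOS in place of JUN, and EGR1 is a zinc finger factor. In embryos the ERK branch carries the signals of fibroblast growth factors, which are active in the tail end of the body axis while somites are laid down.

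Library totals ran from 12.2 M to 13.5 M uniquely mapped reads (M, 1000000 reads), and 13957 rows had enough reads to be tested, all 7 members among them. One library was far from the rest: WT replicate 3 lay at -61.74 on the first principal component (57.7% of the variance), and the other 5 lay between -9.131 and 29.99. It gave the lowest RPKM (reads scaled to transcript length and library total) of the 6 libraries in 41.4% of tested rows. In 25.3% of tested rows it gave the highest. QQ replicate 1 stood apart in a small group of transcripts, placental ones among them, described with the member values below. Of the cell type marker lists, the somite genes MEOX1 and TCF15 were present in every library and MESP2 had 0 or 1 read, and together they summed to 31.0 to 39.0 RPKM in WT and 32.1 to 42.8 in QQ libraries. The 4 neural tube markers were not analysed here.

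Across all tested rows, edgeR's quasi-likelihood test with Benjamini-Hochberg adjustment called 0.0% higher and 0.0% lower in QQ embryos at an adjusted p under 0.05, and the smallest adjusted p was 0.233. None of the 7 members was called. At an unadjusted p under 0.05, edgeR placed 11.0% of all rows higher and 9.29% lower in QQ, and 2 members, IER5 and ELK4, were among the higher. DESeq2 called the same 2 members, against 0.835% of its 12329 rows higher and 0.0649% lower, and limma on log2 RPKM called neither these members nor any other. Since the members were chosen with this contrast in view, these counts are given for completeness.

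**Figure D1:**
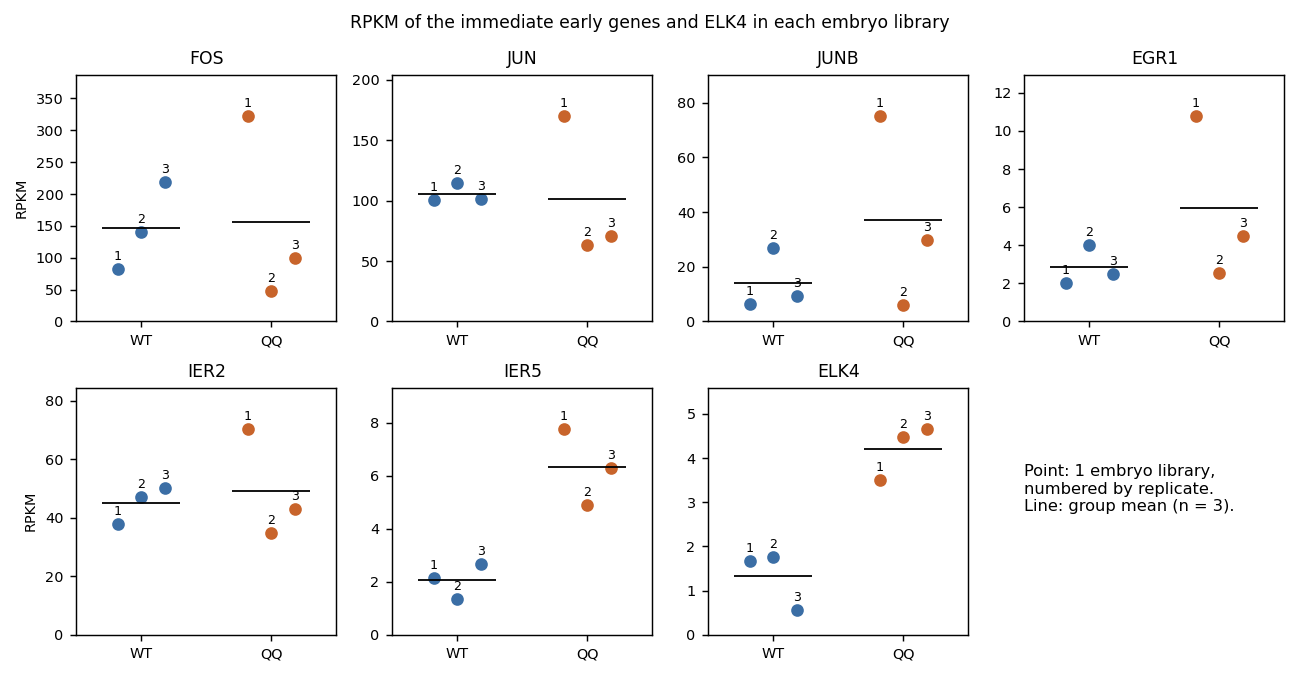
RPKM of the 7 genes (vertical axes, each starting at 0) in the 3 WT and 3 QQ embryo libraries (horizontal axis); each point is 1 library, numbered by replicate, and each line is the mean of a group (n = 3). QQ replicate 1 is the highest point for all genes but ELK4, and the groups are separate only for IER5 and ELK4.

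FOS, the AP-1 subunit whose RNA is widely used as a sign of stimulated cells, was the most abundant member by mean RPKM and, after JUNB, the one that varied most among QQ embryos. Its transcript row, ENSSSCT00000002650 of 2144 bp, stood at 81.8, 139.7 and 219 RPKM in the WT embryos and at 323, 47.6 and 98.9 RPKM in the QQ embryos. The highest and the lowest library were both QQ embryos, and the groups overlapped over the whole WT range. Means were 147 ± 68.8 RPKM in WT and 156 ± 146 RPKM in QQ (SD, n = 3 each), a fitted log2 fold change of 0.02 ± 0.62 (SE). Without QQ replicate 1 the fold change was -1.14. The sign of the FOS difference thus changed with a single embryo.

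The spread of FOS within a genotype was wide next to that of other transcripts. The highest QQ library was 6.77 times the lowest, above 99.6% of the 12536 rows used for this comparison, and the highest WT library was 2.68 times the lowest, above 94.5% of rows. The median row spread 1.32-fold over the WT and 1.23-fold over the QQ libraries.

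JUN, the other subunit of classical AP-1, was nearly level over the WT embryos. Its row, ENSSSCT00000036290 of 3477 bp, gave 100.2, 115 and 101 RPKM in the WT embryos and 170.4, 63.1 and 71.1 RPKM in the QQ embryos. All 3 WT values fell between the high QQ embryo and the 2 low ones. Means were 106 ± 8.43 and 102 ± 59.8 RPKM (SD, n = 3 each), with a log2 fold change of -0.13 ± 0.34 (SE), or -0.78 without QQ replicate 1. The WT spread, 1.15-fold, lay above only 18.8% of rows and the QQ spread, 2.70-fold, above 98.1%.

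JUNB had the widest spread of the set. This JUN relative, which mice need for the blood vessels of their extra-embryonic tissues, stood at 6.47, 26.8 and 9.45 RPKM in the WT embryos and at 75.3, 5.96 and 29.7 RPKM in the QQ embryos (row ENSSSCT00000015009, 1881 bp). The lowest QQ embryo was below every WT embryo, and the highest was 2.54 times the next library. The QQ spread of 12.6-fold lay above 99.8% of rows and the WT spread of 4.14-fold above 98.9%, so this gene varied between embryos in both genotypes.

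JUNB means were 14.2 ± 11.0 RPKM in WT and 37.0 ± 35.2 RPKM in QQ (SD, n = 3 each). The log2 fold change of 1.32 ± 0.77 (SE) fell to 0.21 without QQ replicate 1 and reached 2.13 without WT replicate 2, the WT embryo with the most JUNB.

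The make-up of the AP-1 transcripts also differed between embryos. The FOS to JUN ratio of RPKM was 0.816, 1.21 and 2.16 in the WT embryos and 1.89, 0.755 and 1.39 in the QQ embryos, so either gene could be the more abundant in both genotypes. The JUNB to JUN ratio ran from 0.0645 to 0.232 in WT embryos. It was 0.442, 0.0945 and 0.417 in the QQ embryos, where replicates 1 and 3 exceeded every WT embryo and replicate 2 did not.

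EGR1, the zinc finger factor whose promoter holds several serum response elements, had far fewer reads than the AP-1 genes. Its row, ENSSSCT00000015660 of 3169 bp, stood at 2.02, 4.01 and 2.51 RPKM in the WT embryos and at 10.8, 2.56 and 4.50 RPKM in the QQ embryos. The groups overlapped, since QQ replicate 2 lay among the WT libraries, and QQ replicate 1 was 2.40 times the next library. Means were 2.85 ± 1.03 and 5.96 ± 4.32 RPKM (SD, n = 3 each), with a log2 fold change of 1.00 ± 0.49 (SE) that was 0.18 without QQ replicate 1.

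EGR1 was the only member read over a small part of its row. In every library reads covered only 14.96% to 15.87% of the row's length, although it held 80 to 462 reads per library. Among 89 rows of similar length and number of reads, the median coverage was 79.0%, and 1 row lay below EGR1. The other EGR1 row, of 2878 bp, had 2 reads in all. The RPKM of EGR1 divides by the whole length of its row, which matters where its level is set beside other genes. This length cancels where embryos are compared, but the origin of the reads on the covered part was not tested.

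IER2, a small nuclear protein of the immediate early class, varied least of the members over the 6 embryos, 2.03-fold, and had the same highest and lowest embryo as JUN. Its row, ENSSSCT00000015027 of 666 bp, gave 37.9, 46.9 and 50.1 RPKM in the WT embryos and 70.3, 34.6 and 42.8 RPKM in the QQ embryos. WT values again lay inside the QQ range. Means were 45.0 ± 6.36 and 49.2 ± 18.7 RPKM (SD, n = 3 each), with a log2 fold change of 0.05 ± 0.27 (SE) that became -0.35 without QQ replicate 1.

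IER5 was higher in every QQ embryo than in any WT embryo. It encodes a protein that is known to bind the phosphatase PP2A and to act on the heat shock factor HSF1. Its row, ENSSSCT00000016930 of 975 bp, stood at 2.13, 1.36 and 2.67 RPKM in the WT embryos and at 7.76, 4.89 and 6.30 RPKM in the QQ embryos. The lowest QQ library was 1.83 times the highest WT library. These values rest on 17 to 35 reads in a WT library and 60 to 102 in a QQ library.

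The log2 fold change of IER5 was 1.52 ± 0.31 (SE), or 1.31 without QQ replicate 1 and 1.79 without WT replicate 3. QQ replicate 1 was again the highest library, at 1.23 times the next, a smaller lead than for FOS, JUN, JUNB, EGR1 or IER2.

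ELK4, the ternary complex factor, also separated the groups, with another order of embryos. Its row, ENSSSCT00000028838 of 1739 bp, stood at 1.66, 1.75 and 0.556 RPKM in the WT embryos and at 3.50, 4.48 and 4.66 RPKM in the QQ embryos. QQ replicate 1 was the lowest QQ embryo here, and WT replicate 3 the lowest of all, with 13 reads. ELK4 rose over the 6 libraries in their order on the first principal component of all tested rows. There, WT replicates 3, 1 and 2 lay at -61.74, -9.131 and 1.004. QQ replicates 1, 2 and 3 lay at 10.95, 28.93 and 29.99. The part of that component in the ELK4 difference was not tested. The lowest QQ library was 2.00 times the highest WT library. The log2 fold change was 1.59 ± 0.35 (SE), 1.67 without QQ replicate 1 and 1.23 without WT replicate 3.

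In all, 2 of the 7 members had every QQ library above every WT library, and 18.8% of all tested rows did. The reverse order was found for none of the members and for 9.07% of tested rows. These counts use RPKM, which scales to the library total alone. The fit also used TMM factors, which were 0.933 to 0.986 in WT and 0.989 to 1.064 in QQ libraries. Dividing by them would lower QQ relative to WT values, and the counts were not repeated that way.

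**Figure D2:**
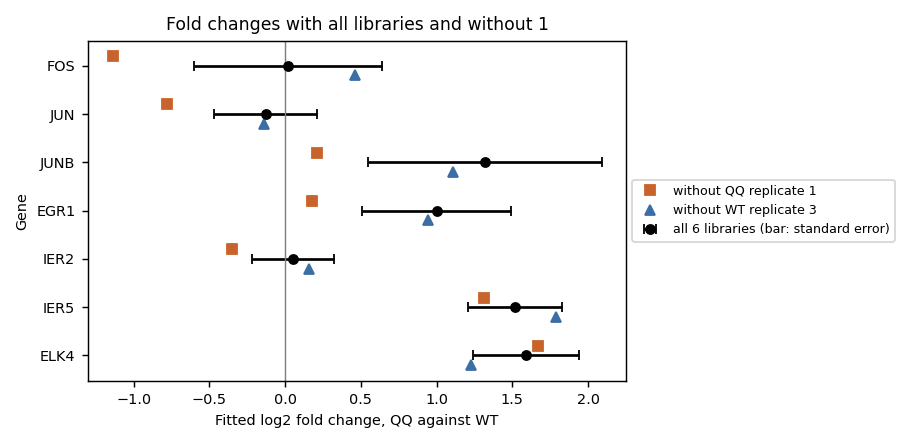
Fitted log2 fold change of QQ against WT (horizontal axis) for each gene (vertical axis); black points with bars are the fit of all 6 libraries with its standard error, orange squares the fit without QQ replicate 1 and blue triangles the fit without WT replicate 3. FOS moves from 0.02 to -1.14 and JUNB from 1.32 to 0.21 without QQ replicate 1, while IER5 and ELK4 stay between 1.23 and 1.79.

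Ordered by mean RPKM over the 6 embryos, the set ran from FOS (152 ± 102, SD, n = 6) and JUN (104 ± 38.3) through IER2 (47.1 ± 12.7) and JUNB (25.6 ± 26.5) to EGR1 (4.40 ± 3.28), IER5 (4.19 ± 2.54) and ELK4 (2.77 ± 1.69). Only some steps of this order held in every embryo. JUN exceeded IER2, and JUNB exceeded EGR1, in 6 of 6 libraries. FOS exceeded JUN in 4, IER2 exceeded JUNB in 5, EGR1 exceeded IER5 in 2 and IER5 exceeded ELK4 in 5 of 6. The neighbours FOS and JUN, IER2 and JUNB, EGR1 and IER5, and IER5 and ELK4 thus changed places in at least 1 embryo. The place of EGR1 in this order is uncertain, since its RPKM divides by a row of which reads covered at most 15.87%.

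Coverage along the rows was high for the abundant members and lower for IER5 and ELK4. Reads covered 96.27% to 97.71% of the FOS row, 90.22% to 96.38% of JUN, 89.47% to 97.24% of JUNB and 99.40% to 99.85% of IER2. IER5 was covered to 63.18%, 58.87% and 75.38% in the WT embryos and to 85.54%, 73.44% and 89.13% in the QQ embryos. For ELK4 the WT values were 51.87%, 62.51% and 29.10%, all below the QQ values of 75.10%, 85.91% and 79.99%, and the lowest belonged to WT replicate 3. Over all rows, a library's deviation from the mean log2 CPM changed by -0.027 to 0.012 per doubling of transcript length in WT and by -0.011 to 0.030 in QQ embryos, with WT replicate 3 at the low end.

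**Figure D3:**
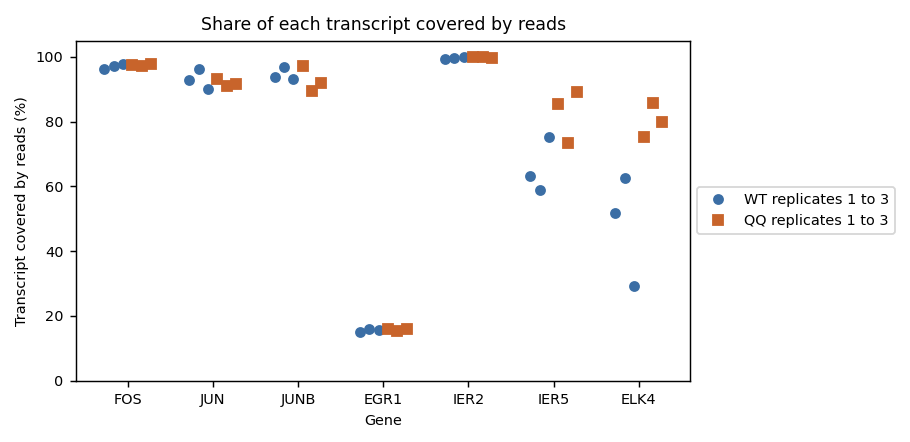
Percent of each transcript row covered by reads (vertical axis, from 0) for the 7 genes (horizontal axis); blue circles are WT and orange squares QQ replicates 1 to 3 from left to right. FOS, JUN, JUNB and IER2 are covered to 89.47% or more, EGR1 to at most 15.87%, and WT replicate 3 is the lowest point of ELK4 at 29.10%.

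The embryo with the most of a member was nearly always the same one. QQ replicate 1 was the highest library for 6 of the 7 members, all but ELK4, and for 7.51% of all tested rows. It was the highest by over 1.5 times for JUNB and EGR1, against 0.502% of tested rows. QQ replicate 2 was the lowest library for FOS, JUN, JUNB and IER2, against 11.1% of tested rows. Both are embryos of 1 genotype, so a mean over the QQ group joins the 2 ends of the range of these genes.

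Other immediate early genes had the same embryo at the top. Like the members, the lists were chosen with earlier results of these data known, so their shares are a description. In a list of 36 such genes, of which 30 had a row and 28 were tested, 22 were highest in QQ replicate 1 (78.6%). In a list of AP-1 and EGR relatives, 7 of 10 tested genes were (70.0%). The feedback inhibitors of ERK, dual specificity phosphatases and Sprouty proteins, had 6 of 14 tested genes highest there (42.9%). Among 19 tested genes of the Ras to ERK cascade and 9 of the JNK and p38 cascades, QQ replicate 1 was the highest library for 0.

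**Figure D4:**
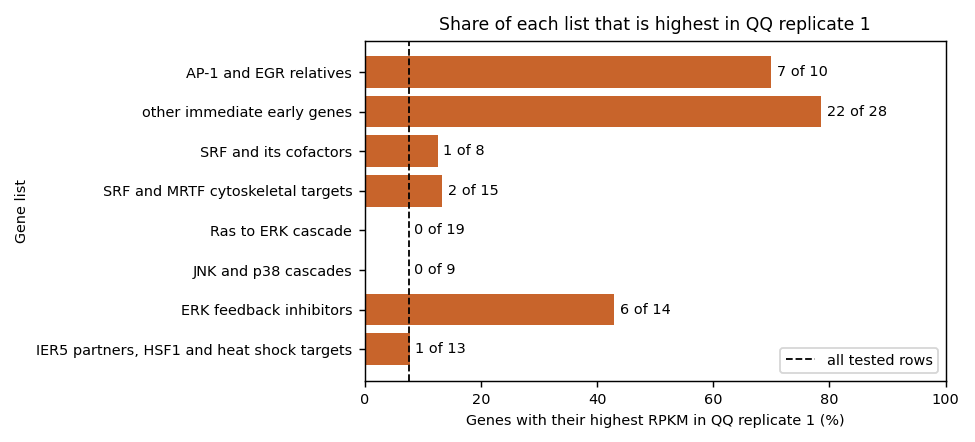
Percent of the tested genes of each list (vertical axis) whose highest RPKM is in QQ replicate 1 (horizontal axis, 0 to 100%); the dashed line is the share over all tested rows, 7.51%. The AP-1 and EGR relatives and the other immediate early genes reach 70.0% and 78.6%, the kinase cascades 0%. The lists were chosen with earlier results of these data known.

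In all, 70 tested rows were highest in QQ replicate 1 by over 1.5 times. Members and genes of 3 lists, the AP-1 and EGR relatives, the other immediate early genes and the ERK feedback inhibitors, made up 12 of these rows (17.1% of the 70, and 20.3% of the 59 tested members and list genes): JUNB, EGR1, FOSL2, MAFF, ATF3, NR4A1, BTG2, GADD45B, PPP1R15A, CSRNP1, DUSP1 and DUSP2. NR4A1, an orphan nuclear receptor, had the highest ratio of the 12 and was picked here for that. It stood at 5.04, 11.7 and 14.4 RPKM in the WT embryos and at 43.7, 5.76 and 12.4 RPKM in the QQ embryos, so QQ replicate 1 was 3.04 times the next library.

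The rows that led these 70 were of another kind, and their genes too were picked for their values. PLET1, a placenta-expressed transcript, stood at 1.86, 6.89 and 3.69 RPKM in the WT embryos and at 79.5, 2.35 and 0.763 RPKM in the QQ embryos. IFNG, the interferon that pig trophoblast secretes around implantation, stood at 3.32, 9.23 and 10.3 RPKM in the WT and at 71.6, 2.90 and 0.0679 RPKM in the QQ libraries. A pregnancy-associated glycoprotein row had 5.13 RPKM in QQ replicate 1 and 0.136 to 0.799 RPKM elsewhere. Extra-embryonic tissue of each embryo was collected separately for genotyping, per the labels.

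The trophoblast marker list had 4 of 5 genes with a row, and its summed level was 20.7 to 29.3 RPKM in WT libraries, 16.7 and 19.1 in QQ replicates 3 and 2, and 88.7 in QQ replicate 1. IFNG gave 71.6 of these 88.7 RPKM. GATA3, TFAP2C and HSD17B1 stood at 12.0, 2.75 and 2.45 RPKM in QQ replicate 1, within the WT ranges of 10.9 to 13.5, 2.69 to 3.60 and 1.63 to 2.69. Of 4 uterine markers 2 had a row, PGR at 0 or 1 read in each library and SPP1. They summed to 7.95 to 9.33 RPKM in WT and 7.89 to 9.23 in QQ. Outside the lists, a uterine plasmin/trypsin inhibitor row, picked for its value, stood at 23.1 RPKM in QQ replicate 1 and 2.59 to 10.7 elsewhere. The part of placental or uterine RNA in the values of the immediate early genes was not tested.

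QQ replicate 2, the low embryo for FOS, JUN, JUNB and IER2, also had the least RNA of red blood cells. The 5 of 6 markers with a row summed to 281 RPKM in it and to 2915 and 3178 RPKM in QQ replicates 1 and 3, and to 2136 to 7641 RPKM in the WT libraries, most of it embryonic globin. WT replicate 1 had the most red blood cell RNA. It also had the lowest FOS, JUN, JUNB, EGR1 and IER2 of the WT group, but not the lowest IER5 or ELK4. Endothelial markers (2 of 4 with a row) summed to 7.62 to 10.7 RPKM in WT and 9.22 to 11.6 in QQ. The 1 of 3 white blood cell markers with a row, LYZ, reached at most 0.363 RPKM. Outside the lists, a macrophage-expressed gene 1-like row, picked for its value, stood at 58.3 RPKM in QQ replicate 1 and 1.96 to 9.27 elsewhere. The part of blood in the member values was not tested.

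**Figure D5:**
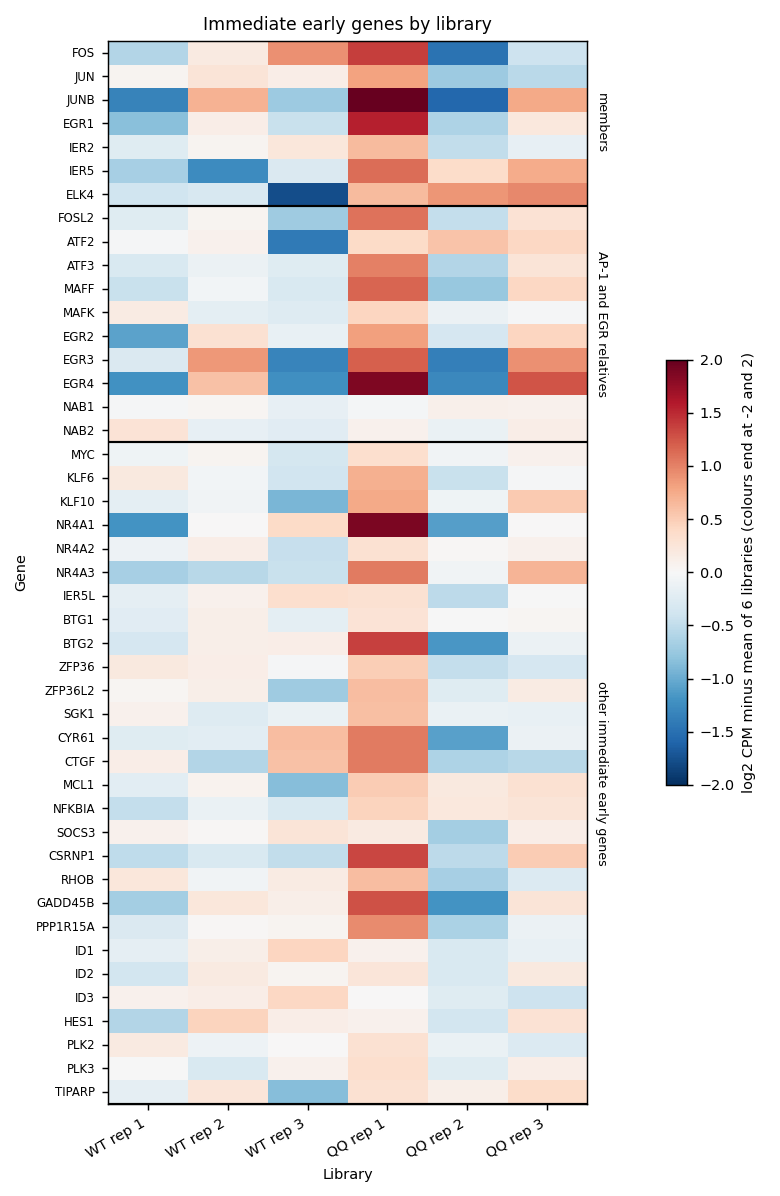
Colour gives log2 CPM (counts scaled to the TMM-adjusted library total, with a prior count of 2) minus the mean of the 6 libraries. Rows are the tested members, AP-1 or EGR relatives and other immediate early genes (vertical axis), and columns the libraries (horizontal axis). Red is above and blue below the mean. The column of QQ replicate 1 is red for nearly all genes, with list medians of 0.91 and 0.49, and that of QQ replicate 2 mostly blue, with medians of -0.41 and -0.31.

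The pathway lists were next compared between genotypes. No gene of the 8 lists passed an adjusted p of 0.05 in edgeR or limma, and DESeq2 called 1, NR4A3. The counts below are of fitted values, with the number at an unadjusted edgeR p under 0.05 in each direction. Over all tested rows, 11.0% were higher and 9.29% lower at that unadjusted edgeR p. The median log2 fold change over all tested rows was 0.00, and 49.7% of rows had a fold change above 0. For each list the 2 genes with the smallest unadjusted p are named, and the edgeR adjusted p of these 16 genes ran from 0.233 to 0.276.

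AP-1 and EGR relatives had higher fitted values in QQ for 10 of 10 tested genes, with a median log2 fold change of 0.64 that was 0.20 without QQ replicate 1. The unadjusted count was 1 higher and 0 lower. ATF2, a partner of JUN in AP-1 complexes, stood at 23.8, 25.7 and 8.48 RPKM in the WT and 32.1, 39.2 and 34.7 in the QQ embryos (0.79 ± 0.32, log2 fold change and SE). EGR4, a relative of EGR1, stood at 0.171, 0.792 and 0.159 RPKM in the WT and 2.06, 0.170 and 1.40 in the QQ embryos (1.62 ± 0.81). The EGR4 values rest on 4, 19 and 4 reads in the WT and 52, 4 and 32 in the QQ embryos. DESeq2 gave EGR4 no adjusted p. ATF2 was lowest in WT replicate 3, and EGR4 followed the embryo order of JUNB in the QQ group.

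The other immediate early genes were split, 20 higher and 8 lower, with a median of 0.23 that turned to -0.11 without QQ replicate 1. The unadjusted count was 4 higher and 1 lower. NR4A3, an orphan nuclear receptor like NR4A1, stood at 0.598, 0.643 and 0.658 RPKM in the WT and 2.01, 0.985 and 1.66 in the QQ embryos (1.21 ± 0.29), with every QQ library above every WT library. MCL1, which guards cells from apoptosis, stood at 59.6, 72.2 and 36.1 RPKM in the WT and 97.7, 85.3 and 90.5 in the QQ embryos (0.62 ± 0.21). Both had groups that did not overlap, as 18.8% of all rows did in this direction.

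SRF, the partner of ELK4 on DNA, had overlapping groups. It stood at 43.4, 37.9 and 40.7 RPKM in WT and 55.3, 37.3 and 38.3 RPKM in the QQ embryos, with QQ replicate 1 again the highest and a log2 fold change of 0.02 ± 0.18 (SE), or -0.23 without it. ELK1, the nearest relative of ELK4, gave 6, 5 and 1 reads over the WT embryos and 6, 1 and 1 over the QQ embryos and was too scarce to be tested. ELK4 had a higher RPKM than ELK1 in every library. ELK3, the other ternary complex factor, was added here after its values were seen. It stood above both, at 12.9, 11.7 and 9.92 RPKM over the WT and 12.1, 14.1 and 14.9 RPKM over the QQ embryos.

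SRF and its cofactors had fitted values higher in 7 and lower in 1 of 8 tested genes, with a median of 0.13 that was -0.01 once each library's trend with transcript length was removed. The unadjusted count was 1 higher and 0 lower. EP300, an acetyltransferase that works with ELK factors, stood at 0.880, 1.26 and 0.436 RPKM in the WT and 1.14, 1.82 and 2.51 in the QQ embryos (0.99 ± 0.36). MED23, the Mediator subunit that ELK1 contacts, stood at 0.789, 0.815 and 0.299 RPKM in the WT and 0.791, 1.46 and 1.24 in the QQ embryos (0.78 ± 0.36). Like ELK4, both were lowest in WT replicate 3.

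The cytoskeletal genes that SRF drives through its other class of cofactor, the MRTF proteins, had lower fitted values in QQ for 14 of 15 tested genes, with a median of -0.22 (-0.36 to -0.12 over the alternatives). The unadjusted count was 0 higher and 2 lower. TPM2, a tropomyosin, stood at 152, 137 and 178 RPKM in the WT and 151, 117 and 109 in the QQ embryos (-0.40 ± 0.17). MYL9, a myosin light chain, stood at 128, 123 and 158 RPKM in the WT and 128, 97.8 and 113 in the QQ embryos (-0.36 ± 0.16). Groups overlapped for TPM2 and for MYL9, and both were highest in WT replicate 3.

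The kinase lists upstream had medians near that of all rows. The Ras to ERK cascade had 14 higher and 5 lower of 19 tested genes, with a median of 0.09, or -0.01 with the length trend removed, and an unadjusted count of 4 higher and 1 lower. BRAF, a kinase near its top, stood at 9.03, 10.02 and 4.81 RPKM in the WT and 12.5, 16.2 and 16.4 in the QQ embryos (0.83 ± 0.23), while MAPK3, which encodes ERK1 itself, stood at 37.6, 34.9 and 42.1 RPKM in the WT and 30.6, 28.0 and 28.1 in the QQ embryos (-0.50 ± 0.13). The 2 genes pointed in opposite directions, each without overlap between groups. Every QQ library lay above every WT library for 9 of the 19 genes and below for 2, against 18.8% and 9.07% of all rows. The former held for 1 of 10 AP-1 and EGR relatives, 4 of 28 other immediate early genes and 4 of 14 ERK feedback inhibitors. As for the members, these counts were made on RPKM without the TMM factors, which lie higher in QQ libraries.

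The JNK and p38 cascades had 5 higher and 4 lower of 9 tested genes, with a median of 0.03 (-0.05 with the length trend removed) and an unadjusted count of 1 in each direction. The MAP3K1 kinase stood at 8.65, 8.51 and 6.22 RPKM in the WT and 9.53, 11.3 and 11.8 in the QQ embryos (0.39 ± 0.14). Its fold change was 0.18 with the length trend removed and 0.27 without WT replicate 3. MAPK12, a p38 isoform, stood at 18.7, 15.4 and 21.2 RPKM in the WT and 16.8, 13.7 and 13.8 in the QQ embryos (-0.41 ± 0.18). QQ libraries lay above all WT libraries for 3 of the 9 genes, MAP3K1 among them, and below for 0.

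The ERK feedback inhibitors had 10 higher and 4 lower of 14 tested genes, a median of 0.21 (0.11 to 0.29 over the alternatives) and an unadjusted count of 4 higher and 0 lower. SPRED1, which blocks Raf activation, stood at 15.3, 19.4 and 8.43 RPKM in the WT and 19.5, 30.1 and 29.3 in the QQ embryos (0.78 ± 0.27). DUSP2, a nuclear phosphatase of ERK, stood at 0.850, 2.04 and 1.53 RPKM in the WT and 7.35, 1.46 and 3.71 in the QQ embryos (1.43 ± 0.55). SPRED1, like ELK4, was lowest in WT replicate 3 and had its lowest QQ value in replicate 1, and DUSP2 had the order of EGR1 and JUNB in QQ.

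The partners and heat shock targets linked to IER5 had 6 higher and 7 lower of 13 tested genes, with a median of -0.14 (0.02 in limma) and an unadjusted count of 1 in each direction. HSPH1, a heat shock chaperone, stood at 68.6, 84.4 and 62.8 RPKM in the WT and 76.0, 123 and 139 in the QQ embryos (0.54 ± 0.19). CDC25B, a cell cycle phosphatase, stood at 19.3, 14.3 and 20.9 RPKM in the WT and 14.0, 16.1 and 14.7 in the QQ embryos (-0.39 ± 0.16). The groups overlapped for both genes.

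The transcripts whose pattern over the 6 embryos was most like that of IER5 and of ELK4 were 2 separate groups. Likeness was measured as the root mean squared difference of log2 CPM after centring each gene on its mean, over 6162 named genes with a mean of at least 1 RPKM. NR4A3 was the nearest to IER5, at 0.35, followed by the ectonucleotidase gene ENTPD8 (0.41), the chemerin receptor gene CMKLR1 (0.43), TMEM158 (0.49) and SERTAD1 (0.50). Of these, NR4A3, ENTPD8 and SERTAD1 were highest in QQ replicate 1, as IER5 was, which the choice by likeness favours.

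ELK4 lay much nearer to its neighbours. The 5 nearest were UBN2 (0.13), the RNA-binding protein gene RC3H1 (0.14), the kinase gene TTBK2 (0.15), the osmotic stress factor NFAT5 (0.18) and the coenzyme A enzyme gene PANK3 (0.20). Being chosen for likeness to ELK4, they share its low value in WT replicate 3, where RC3H1 stood at 2.89 RPKM against 7.70 and 8.37 in WT replicates 1 and 2 and 12.5, 19.4 and 18.6 in QQ replicates 1 to 3. IER5 was only the 1004th gene in likeness to ELK4, and ELK4 the 1264th in likeness to IER5, at a difference of 0.78.

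FOS was given the same measure after its values were seen. Its 5 nearest transcripts were CYR61, a secreted matrix protein (0.34), BTG2 (0.38), GADD45B (0.44), NR4A1 (0.45) and MPST (0.46), and the first 4 of them belong to the list of other immediate early genes. Among the members themselves, JUN and IER2 were the closest pair (0.25) and FOS and ELK4 the farthest (1.60). In the pig gene order of Sscrofa11.1, JUNB, IER2 and EGR1 lie on 1 chromosome. JUNB and IER2 have 18 protein-coding genes between them and differed by 1.07 in pattern, and EGR1 and IER2 have 766 between them and differed by 0.55. IER5 and ELK4 also share a chromosome, with 303 protein-coding genes between them, and differed by 0.78.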

How the data were processed

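Total RNA of 3 WT and 3 QQ embryos was made into TruSeq libraries, per the labels' protocols, and sequenced on an Illumina instrument. Per the submitters' processing notes, the genome build was Sscrofa10.2. Aligner, read counter and strand use were not given in the sources used here. Per the file headers, the deposited table gives for each transcript row the count of uniquely mapped reads, the percent of the row covered and the RPKM. In the deposited table, RPKM is each count divided by row length and library total. Rows carry no coordinates. A floor of 3 reads lies at 0.222 to 0.246 CPM and covers counting error only.

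Symbols came from the deposited protein accession (7179 rows), the KEGG gene (2277) or the protein description (74), through a gene table of Sscrofa11.1 used for names and gene order only. Where a row had both an accession and a KEGG gene (3931 rows), 96.82% led to 1 symbol. A gene with several rows was taken at the row with the most reads.

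Counts were tested with edgeR 4.0.16 in R 4.3.3 (TMM factors, minimum count 10, minimum total 15, quasi-likelihood fit, Benjamini-Hochberg adjustment over 13957 rows, threshold 0.05). DESeq2 1.42.0, limma 3.58.1 on log2(RPKM + 0.5), median-ratio scaling, other filters, a replicate block, fits with 1 library left out, summed reads per gene, a threshold of 0.1 and offsets that take out the trend with length in each library (loess, span 0.4) were alternatives. As a check for duplicated libraries, the chi-square of counts per degree of freedom was taken for each pair of a group, and was at least 8.13.

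Named were all members, SRF and ELK1, from each of 8 lists the 2 tested genes with the smallest unadjusted p, and the 5 genes nearest in pattern to IER5 and to ELK4; genes named outside this rule are said to be. Of 154 list genes 122 had a row and 116 were tested. The members, lists and markers were chosen with earlier results of these data known. Figures were drawn with matplotlib 3.10.9.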

Additional observations from a re-analysis of the deposited data

How the results depend on the processing

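IER5 and ELK4 kept higher values in QQ under all 14 alternatives (1.29 to 1.79 and 1.23 to 1.83 on the log2 scale). Every QQ library lay above every WT library for both, so dropping 1 library could hardly turn their sign. JUNB (0.21 to 2.13) and EGR1 (0.18 to 1.37) also stayed higher, with their lowest values without QQ replicate 1. The sign of FOS turned in limma (-0.24), with the replicate number as a block (-0.44) and with the length trend removed (-0.02), that of IER2 with the block (-0.02) and the length trend (-0.03), and that of SRF with the block (-0.01) and the length trend (-0.07). Leaving out 1 library at a time gave -1.14 to 0.46 for FOS, -0.78 to 0.14 for JUN, -0.35 to 0.26 for IER2 and -0.23 to 0.14 for SRF. The cause was not tested. DESeq2 called 103 rows higher and 8 lower, among them 2 members, where edgeR called none. Leaving out 1 library gave 0 to 2 rows higher, 0 to 1 lower and 0 members in edgeR: 1 higher without WT replicate 3, and 2 higher and 1 lower without QQ replicate 1. At an unadjusted p under 0.05 edgeR gave 1540 rows higher and 1297 lower, limma 2099 and 640, edgeR with the length trend removed 1257 and 1855, and edgeR 1215 and 732 once WT replicate 3 was dropped. Dropping QQ replicate 2 left 788 up and 432 down, and dropping QQ replicate 3 left 712 up and 383 down. Same-numbered deviations of WT and QQ libraries correlated at -0.191, 0.213 and -0.056, and differently numbered ones at -0.17 to 0.221. With 3 libraries per group, each centred on its group, these values cannot decide whether replicate numbers pair the libraries. With the replicate block edgeR called 0 rows. Its unadjusted counts were then 1510 rows up and 781 down. A fold change of IER5 or ELK4 rests on as few as 17 and 13 reads in a library.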
